A study of Mus musculus with 319 samples.

Results

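Thymic tuft cells in which Il10 transcript was read were set apart from those without it. A member, called an Il10-read cell here, was a well of 1 sorted cell with 5 or more reads of Il10. Members were chosen by that read count alone, among wells that held 10000 or more gene reads and 1000 or more genes, with mitochondrially encoded genes taking no more than 20% of those reads. Of 301 cells that passed, 52.5% were Il10-read cells (95% exact interval 46.7% to 58.3%), and by set they were 61 of 96, 43 of 89, 43 of 87 and 11 of 29 cells. A further 41 cells had 1 to 4 reads, and 26, 37, 23 and 16 cells had none. These zero cells are the comparison within each set.

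The gene Il10 encodes interleukin-10, a secreted cytokine that restrains inflammatory responses, and it is best known from T cells, B cells and macrophages. Its receptor is built from Il10ra, which binds the cytokine, and Il10rb, a chain shared with related cytokines, and it signals through the kinases Jak1 and Tyk2 to the transcription factor Stat3. Tuft cells are chemosensory epithelial cells that carry a taste-like signalling cascade and release effector molecules such as interleukin-25. In the thymus they lie in the medulla among the epithelial cells that present self antigens.

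Each well was 1 library from the thymus epithelium of naive mice, sorted as EPCAM+ and Flare25+ with low MHC class II (MHCIIlo), and as negative for CD45, CD11c and UVBlue. Every mouse carried Flare25/Flare25, a reporter of Il25, so the sort selected cells by reporter signal and not by other tuft cell markers. Sex was labelled as mixed. The 4 sets of cells were a set labelled Aire-/- (Flare25/Flare25 Aire-/- mice of the strain C57BL/6.Il25.Aire, aged 6 weeks with 1 well at 5 weeks, batch 2), and wild-type (WT) sets called WT batch 2, WT June29 and WT June5 (C57BL/6.Il25 mice of 6 weeks with no Aire allele named, the June sets being batch 1). Wherever 4 values stand in a row, they follow that order. The labels name no animals, so each set counts as 1 sample, and p-values measure the spread between these 4 sets only, which may be technical.

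Gene reads per cell ranged from 45266 to 2927690. Reads of Aire, counted over the whole gene, were higher in the set labelled Aire-/- (152.7 CPM, gene reads scaled to a total of 1000000) than in the WT sets (18.9, 11.2 and 7.84 CPM). The labels do not say which part of Aire was removed, so the reads do not check the label. In the set labelled Aire-/-, 56 of 61 Il10-read cells and 21 of 26 zero cells had reads of Xist and under 5 Y-linked reads, and no cell had the opposite pattern. In WT June29 the opposite pattern held, with Y-linked reads alone in 36 of 43 Il10-read cells and 14 of 23 zero cells. Both patterns occurred in WT batch 2, with Xist alone in 18 Il10-read cells and 20 zero cells, and Y-linked reads alone in 12 Il10-read cells and 13 zero cells.

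Il10-read cells were common in every set. They made up 63.5% of cells in the set labelled Aire-/- (exact interval 53.1% to 73.1%), against 48.3% in WT batch 2 (37.6% to 59.2%). In the other WT sets they were 49.4% of cells in June29 (38.5% to 60.4%) and 37.9% in June5 (20.7% to 57.7%). The WT sets averaged 45.2% ± 6.34 (SD, n = 3). With 1 pool labelled Aire-/-, the genotypes could not be tested. Among cells with Xist alone, 56 of 86 were Il10-read cells in the set labelled Aire-/- (65.1%, exact interval 54.1% to 75.1%), against 18 of 42 in WT batch 2 (42.9%, 27.7% to 59.04%). Among cells of WT batch 2 with Y-linked reads alone they were 12 of 30 (40%, 22.7% to 59.4%). A separate deposited batch field, numbered 1 and 2, splits the wells within each batch 2 set. By that field the share was 64.6% and 62.5% in the set labelled Aire-/-, against 43.8% and 53.7% in WT batch 2. Intervals and limits cover counting error only, because reads were not tagged by molecule and may be copies.

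Since Il10 reads chose the members, their Il10 levels are a description, with no test. The lowest, median and highest cell had 5.20, 318 and 1365 CPM in the set labelled Aire-/-. In WT batch 2 they had 7.65, 420.4 and 989 CPM, in WT June29 4.91, 385 and 914 CPM, and in WT June5 34.9, 234 and 838 CPM. These ranges overlapped almost entirely between the sets. A level of 100 CPM or more was found in 51 of 61, 36 of 43, 33 of 43 and 8 of 11 Il10-read cells. A single cell supplied 30.5% of all Il10 reads in WT June5, and at most 10.4% in each of the other sets.

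**Figure D1:**
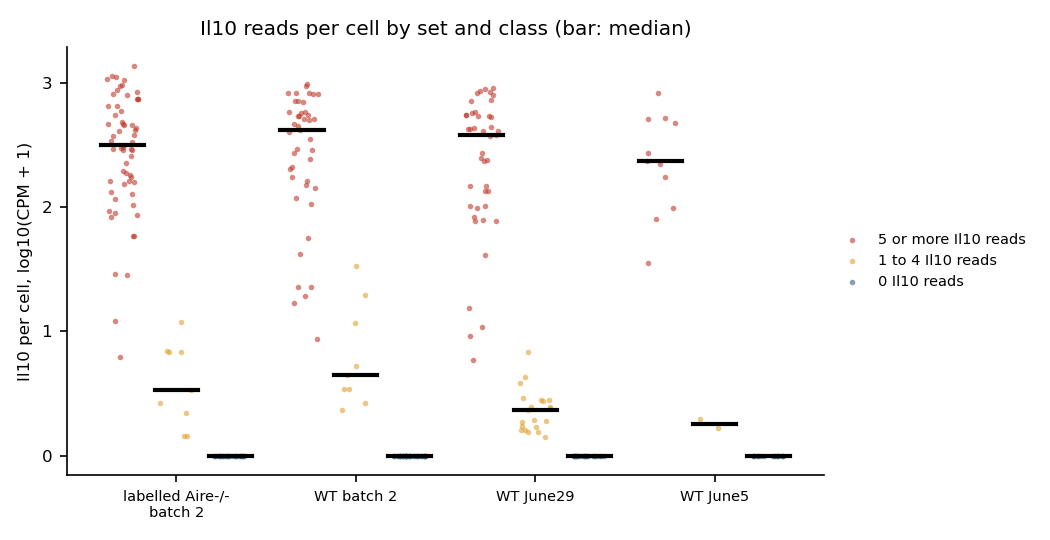
Il10 level of every kept cell as log10(CPM + 1), by set and read class, with a bar at the class median. Cells with 5 or more reads centre on medians of 318, 420.4, 385 and 234 CPM, cells with 1 to 4 reads lie lower, and zero cells lie at 0.

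Few cells lay near the threshold of 5 reads. Just inside it, 2 cells with 5 reads and 1 with 6 had 4.91 to 8.23 CPM, and just outside it 4 cells with 4 reads had 3.30 to 32.7 CPM. Of the 41 cells with 1 to 4 reads, 32 had a single read, and 21 of the 41 were in WT June29, the set with the highest median of gene reads. A count of 0 allowed up to 4.94, 5.32, 3.13 and 6.08 CPM at the median depth of the zero cells, which is under the medians of the Il10-read cells. In the shallowest zero cell of each set it allowed up to 66.3, 33.8, 19.04 and 29.5 CPM.

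Wells of 50 cells also held Il10, with 68 reads in the well labelled Aire-/- (126.01 CPM, exact Poisson interval 97.9 to 159.8) and 278 reads in the WT well (386 CPM, 342 to 434). The 1 no-cell well with a column had 0 of 9892 gene reads, which allows up to 303 CPM. Genotypes of the 50-cell wells follow their titles, but the description of each names the count table of the other genotype, so their genotypes are in doubt and no order is read from them. The no-cell well was of batch 1 and the 50-cell wells were of batch 2. With so few reads its limit sets no background for them, and none is read from it.

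As cells, Il10-read cells differed from zero cells in measures of capture. Median genes per cell were 4722, 4399, 5765 and 5594 in Il10-read cells, against 4269, 4189, 4606 and 4076 in zero cells. Mitochondrial reads were 3.23%, 3.71%, 5.15% and 3.82% of gene reads in Il10-read cells, against 4.46%, 4.71%, 11.6% and 8.39% in zero cells. Spike-in RNA took 29.6%, 35.1%, 22.98% and 26.4% of all reads in Il10-read cells, against 33.9%, 45.98%, 38.03% and 47.3% in zero cells. All 3 medians differed in the same direction in all 4 sets, and the gap was widest in both June sets. After thinning every cell to 231697 gene reads and setting the classes anew, median genes were 4115, 3804, 4225 and 4872 in Il10-read cells, against 3875.5, 3811, 3320 and 3889 in zero cells. Reads of 8 predicted genes such as Gm10800 and Gm10801, known to collect reads of satellite-like repeats and chosen after the values had been seen, also differed. Their summed level in WT June29 had a median of 38.3 CPM in Il10-read cells, against 14368 CPM in zero cells, and reached 196962 CPM in an Il10-read cell and 151180 CPM in a zero cell. In WT June5 the upper quartile was 36.8 CPM in Il10-read cells, against 3529.96 CPM in zero cells, and in both batch 2 sets the median was 0 in each class. These measures moved with the classes in all results below, and their part in them was not tested.

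**Figure D2:**
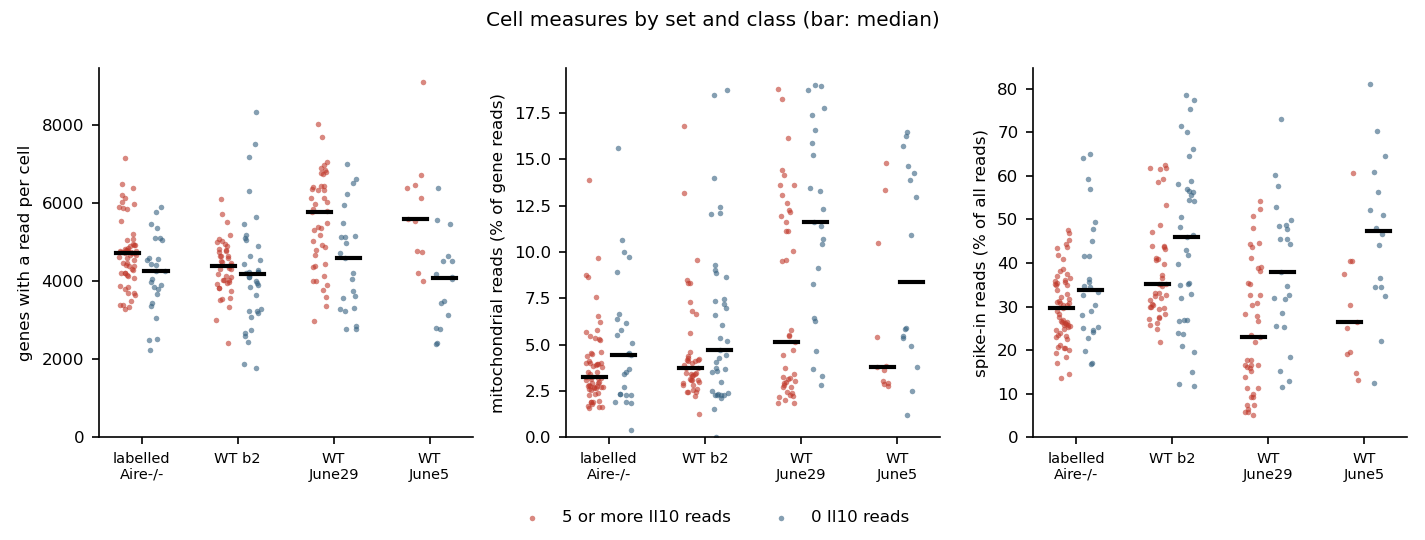
Genes with a read, mitochondrial share of gene reads and spike-in share of all reads per cell, for Il10-read and zero cells of each set, with bars at medians. Il10-read cells had more genes, a lower mitochondrial share and a lower spike-in share by the median in all 4 sets.

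Most cells of both classes carried tuft cell markers. Of 30 tuft core genes, a median of 23, 22, 23 and 23 had 5 or more reads in Il10-read cells, against 24, 22, 22 and 23.5 in zero cells. The lowest cell of each set had 12, 13, 12 and 18 of them among Il10-read cells, against 2, 3, 11 and 14 among zero cells. Their summed level in the lowest cell was 2327, 16087, 14248 and 22469.6 CPM among Il10-read cells, against 123.98, 168.6, 407 and 8900.3 CPM among zero cells, so some zero cells had few or low tuft markers. Under 10 of the 30 genes were found in 0 Il10-read cells and in 1, 3, 0 and 0 zero cells. Summed over cells, Avil, an actin regulator that marks tuft cells, had 4130.1, 3407, 4196 and 3855 CPM in Il10-read cells, against 4014, 2223, 2083 and 4539 CPM in zero cells. Trpm5, the cation channel at the end of the taste cascade, had 1891, 2566, 2163 and 2564 CPM in Il10-read cells, against 2307, 1767, 2253 and 3722 CPM in zero cells. The sums of the classes overlapped for both genes, and neither passed edgeR. Under limma Avil had a log2 fold 1.03 ± 0.26 SE, adjusted p = 0.026, and adjusted p = 0.12 after thinning, while Trpm5 was not called. Epcam, the epithelial protein used in the sort, had 5 or more reads in 61, 43, 42 and 11 Il10-read cells, against 26, 36, 20 and 15 zero cells.

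Counts of all genes were then summed over the cells of each class and set and compared within sets by edgeR's quasi-likelihood test, with Il10 left out. Of 9761 genes tested, 0 (0%) were higher and 0 (0%) lower in Il10-read cells at a Benjamini-Hochberg adjusted p under 0.05, and the lowest adjusted p was 0.371. At an unadjusted p under 0.05 there were 616 genes (6.31%). DESeq2 on the same sums called 1.71% higher and 2.16% lower. Giving each cell equal weight, as the mean of log2(CPM + 1) per class and set tested with limma, called 613 genes higher (6.28%) and 24 lower (0.246%). With cells also thinned to equal depth, limma called 1.87% of them higher and 18 genes (0.184%) lower, and 12 of the lower genes were called in both limma fits. Without the 4 zero cells of few tuft markers edgeR again called 0, limma called 688 higher (7.05%) and 28 lower (0.287%), and limma on thinned cells called 1.75% higher and 20 genes (0.205%) lower.

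The limma folds were not centred on 0. The median over all genes tested was 0.36 on the log2 scale, and 0.27 after thinning, so folds are best read against those values. Quantile normalization of the thinned profiles brought the median to -0.01 and changed the split to 85 genes higher (0.871%) and 67 lower (0.686%). Without WT June29 the limma counts before thinning fell to 7 higher (0.0717%) and 0 lower. They were 424 higher (4.34%) and 16 lower (0.164%) without the set labelled Aire-/-, 471 (4.83%) and 18 (0.184%) without WT batch 2, and 554 (5.68%) and 42 (0.430%) without WT June5.

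The 5 genes with the smallest edgeR p and a higher level in Il10-read cells of all 4 sets were Krt19, Ovol3, Gnat3, Mctp1 and Slitrk6. Their edgeR adjusted p was 0.371 or 0.372, so none passed that test, while all 5 were called higher by limma before and after thinning. Without WT June29 the limma adjusted p was 0.017, 0.035, 0.027, 0.035 and 0.086 in that order, so that Slitrk6 no longer passed. A higher sum can come from more cells with the gene or more reads per cell, so cells with 5 or more reads are counted too.

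Gnat3, the alpha subunit of gustducin and the G protein that couples taste receptors to the cascade, had 1827, 2896, 2180.4 and 2368 CPM in Il10-read cells, against 699, 709.7, 237 and 421 CPM in zero cells (edgeR log2 fold 2.05 ± 0.27 SE, adjusted p = 0.371). The lowest sum of Il10-read cells lay above the highest sum of zero cells. Weighting cells equally gave a limma log2 fold 3.25 ± 0.38 SE, adjusted p = 0.00016, and after thinning the fold was 3.83, adjusted p = 0.00048. The gene had 5 or more reads in 44, 32, 34 and 9 Il10-read cells, against 12, 19, 17 and 10 zero cells, which is 72.1%, 74.4%, 79.1% and 81.8% of Il10-read cells, against 46.2%, 51.4%, 73.9% and 62.5% of zero cells.

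Ovol3, a member of the Ovo family of zinc finger proteins, had 402, 317, 227 and 247 CPM in Il10-read cells, against 46.4, 90.5, 24.1 and 35.2 CPM in zero cells (edgeR log2 fold 2.52 ± 0.32 SE, adjusted p = 0.371). No zero sum reached the lowest Il10-read sum. Under limma its log2 fold 3.43 ± 0.44 SE, adjusted p = 0.0003. It had 5 or more reads in 55.7%, 46.5%, 53.5% and 63.6% of Il10-read cells, against 15.4%, 13.5%, 8.70% and 12.5% of zero cells, and thinned to equal depth in 54.7%, 48.6%, 53.8% and 70% of Il10-read cells, against 19.2%, 11.4%, 5.88% and 7.69% of zero cells. Seen the other way, 82.9%, 80%, 88.5% and 77.8% of all cells positive for Ovol3 were Il10-read cells, while Il10-read cells were 63.5%, 48.3%, 49.4% and 37.9% of all cells.

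Krt19, a keratin of simple epithelium, had 1877, 1356, 2034 and 1544 CPM in Il10-read cells, against 709, 567, 501 and 472 CPM in zero cells (edgeR log2 fold 1.37 ± 0.16 SE, adjusted p = 0.371; limma log2 fold 3.48 ± 0.39 SE, adjusted p = 0.00015), and 5 or more reads in 47, 30, 39 and 9 Il10-read cells, against 12, 11, 15 and 8 zero cells. Mctp1, a membrane protein with calcium-binding C2 domains, had 2860.2, 3242, 2969.8 and 2428 CPM in Il10-read cells, against 1328, 1354, 1203 and 702 CPM in zero cells (edgeR log2 fold 1.14 ± 0.17 SE, adjusted p = 0.372; limma log2 fold 1.78 ± 0.28 SE, adjusted p = 0.0016). It had 5 or more reads in nearly all cells, 61, 43, 43 and 11 Il10-read cells, against 25, 33, 22 and 16 zero cells. For Slitrk6, a transmembrane protein known from sensory organs, the sums were 476, 594, 652 and 676 CPM in Il10-read cells, against 191.9, 191.2, 81.3 and 124.1 CPM in zero cells (edgeR log2 fold 1.88 ± 0.28 SE, adjusted p = 0.372; limma log2 fold 2.58 ± 0.44 SE, adjusted p = 0.0026), with 5 or more reads in 34, 33, 36 and 7 Il10-read cells, against 10, 12, 14 and 7 zero cells. For all 3, the sums of the classes did not overlap. By contrast the keratins Krt8 and Krt18, which mark the same simple epithelium, overlapped between classes, Krt8 with 7295, 5497, 7337 and 5412 CPM in Il10-read cells, against 7006, 5904, 3504 and 9374 CPM in zero cells. Krt18 had 3449.5, 2971, 5302 and 2772 CPM in Il10-read cells, against 3649, 3092, 5663 and 7711 CPM in zero cells. Its sum was thus lower in Il10-read cells of all 4 sets, and it passed neither edgeR nor limma.

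**Figure D3:**
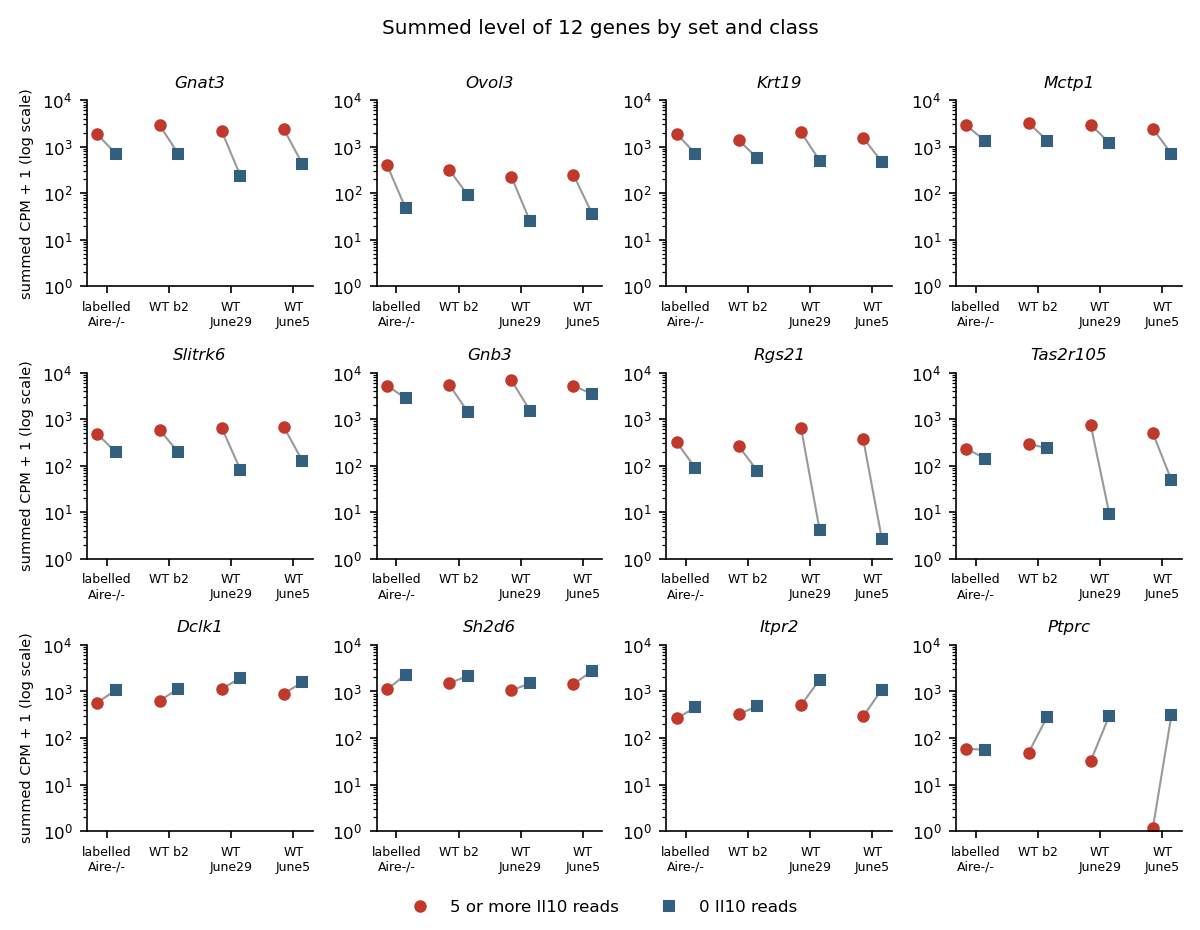
Summed level of 12 genes as CPM + 1 on a log axis, with Il10-read cells as circles and zero cells as squares joined within each set. Gnat3, Ovol3, Krt19, Mctp1, Slitrk6, Gnb3, Rgs21 and Tas2r105 were higher in Il10-read cells of all 4 sets, Dclk1, Sh2d6 and Itpr2 were lower in all 4, and Ptprc was lower in the 3 WT sets only.

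Taste transduction genes had a median fold above that of all genes. In their cascade a receptor activates gustducin, phospholipase C Plcb2 releases calcium through Itpr3, and Trpm5 depolarizes the cell. Of 21 listed genes 15 were tested, and edgeR called 0 (616 of all genes were at an unadjusted p under 0.05) while limma called 8 higher and 0 lower (6.28% and 0.246% of all genes), with a median log2 fold of 1.31 against 0.36 over all genes. DESeq2 called 7 higher and 0 lower (1.71% and 2.16% of all genes). After thinning limma called 6 higher (1.87% of all genes), with a median of 1.05 against 0.27. Without WT June29 limma called 1, with a median of 1.02 against 0.31. With thinned cells, and without those with at least 2 markers of a haematopoietic list, it called 0, with a median of 0.67 against 0.19. The list's summed level was 11316, 13345, 15494 and 13404 CPM in Il10-read cells, against 7727, 5282, 5754 and 10226 CPM in zero cells, so the sum was higher in Il10-read cells of every set.

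Its members did not move alike. Gnb3, the G protein beta subunit of the cascade, had 5224, 5491, 6823 and 5232 CPM in Il10-read cells, against 2808, 1415, 1524 and 3425 CPM in zero cells (edgeR log2 fold 1.19 ± 0.31 SE, adjusted p = 0.615; limma log2 fold 2.69 ± 0.37 SE, adjusted p = 0.00061). Rgs21, a regulator that shortens G protein signals in taste cells, had 317, 258, 655 and 373 CPM in Il10-read cells, against 87.8, 75.6, 3.13 and 1.7 CPM in zero cells (edgeR log2 fold 4.46 ± 1.502 SE, adjusted p = 0.704; limma log2 fold 3.01 ± 0.47 SE, adjusted p = 0.0015). Reads of Rgs21 in zero cells came from few cells, with 5 or more reads in 17, 23, 24 and 5 Il10-read cells, against 3, 4, 2 and 1 zero cells. Tas1r1, a subunit of the umami receptor, had 96.5, 157.98, 115.7 and 104.6 CPM in Il10-read cells, against 18, 23.7, 0.309 and 0.106 CPM in zero cells (limma log2 fold 2.41 ± 0.39 SE, adjusted p = 0.0017). Calhm3, a subunit of the channel that releases the transmitter ATP from taste cells, had 387, 293, 422 and 502 CPM in Il10-read cells, against 428, 125.5, 62.5 and 282 CPM in zero cells, and so was higher in the 3 WT sets but not in the set labelled Aire-/- (limma log2 fold 2.54 ± 0.64 SE, adjusted p = 0.024).

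Several genes of the cascade passed neither edgeR nor limma. Plcb2 had 690.2, 781, 1601 and 1168 CPM in Il10-read cells, against 503, 551, 1178 and 1561 CPM in zero cells (edgeR log2 fold 0.03 ± 0.25 SE; limma log2 fold 1.06 ± 0.37 SE, adjusted p = 0.082; after thinning 1.38, adjusted p = 0.06). Gng13, the gamma subunit, had 210.4, 216, 115.4 and 169.8 CPM in Il10-read cells, against 165.9, 136.7, 101.2 and 176.1 CPM in zero cells (limma log2 fold 0.85 ± 0.39 SE, adjusted p = 0.18). Itpr3, the calcium channel named above, had 83.4, 46.3, 128.5 and 76 CPM in Il10-read cells, against 32.2, 41.8, 4.5 and 51.4 CPM in zero cells (edgeR log2 fold 1.34 ± 0.86 SE; limma log2 fold 1.31 ± 0.43 SE, adjusted p = 0.071), a higher sum in Il10-read cells of all 4 sets. Among the receptors Tas1r3, the subunit shared by sweet and umami receptors, had 69.8, 75.1, 117.5 and 14.3 CPM in Il10-read cells, against 226, 54.5, 37.9 and 100.4 CPM in zero cells, in no fixed order. None of Plcb2, Gng13, Itpr3, Trpm5 and Tas1r3 passed edgeR or limma.

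Bitter taste receptors, the Tas2r family, detect bitter compounds upstream of gustducin. They were taken as a list by name after the values had been seen. Of 40 Tas2r genes 24 were tested, edgeR called 0, and limma called 14 higher and 0 lower (6.28% and 0.246% of all genes), with a median log2 fold of 1.31 against 0.36 over all genes. DESeq2 called 12 higher and 0 lower (1.71% and 2.16% of all genes). After thinning limma called 10 higher (1.87% of all genes), with a median of 1.52 against 0.27. Without WT June29 limma called 0, with a median of 1.36 against 0.31. With thinned cells, and without those with at least 2 markers of a haematopoietic list, it called 0, with a median of 1.27 against 0.19. With thinned cells of at least the median genes it also called 0, with a median of 1.78 against 0.02. All 24 had a fold above 0 under both limma fits and under edgeR. Testing required a mean of 10 CPM over the sums of both classes. Some receptors reached it mainly through Il10-read cells, such as Tas2r130, with 5.28, 2.73, 49.8 and 22.7 CPM, against 0, 0, 0.0441 and 0.106 CPM in zero cells. For these a higher level was partly fixed by the filter, so the counts and medians here and below are descriptions only. Family members share sequence, and how reads that fit several genes were counted is not given in the sources used here, so single members are uncertain. Summed over the family, the level was 1497, 2336, 2915 and 2588 CPM in Il10-read cells, against 683, 1023, 277 and 894 CPM in zero cells, a higher sum in Il10-read cells of each set without overlap between the classes.

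Counted per cell, the median number of Tas2r genes with 5 or more reads was 4, 5, 6 and 7 in Il10-read cells, against 2, 0, 0 and 1 in zero cells. At least 5 such genes were found in 30 of 61, 23 of 43, 22 of 43 and 9 of 11 Il10-read cells, against 4 of 26, 8 of 37, 0 of 23 and 3 of 16 zero cells. As shares these are 49.2%, 53.5%, 51.2% and 81.8% of Il10-read cells, against 15.4%, 21.6%, 0% and 18.8% of zero cells. The 0 of 23 in WT June29 has an exact upper bound of 14.8%. After thinning, the median number of Tas2r genes with a read was 5, 5, 6 and 12.5 in Il10-read cells, against 2, 1, 2 and 2 in zero cells. Zero cells with many Tas2r genes also occurred, with 10 or more in 3, 5, 0 and 1 zero cells, against 18, 14, 12 and 5 Il10-read cells.

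**Figure D4:**
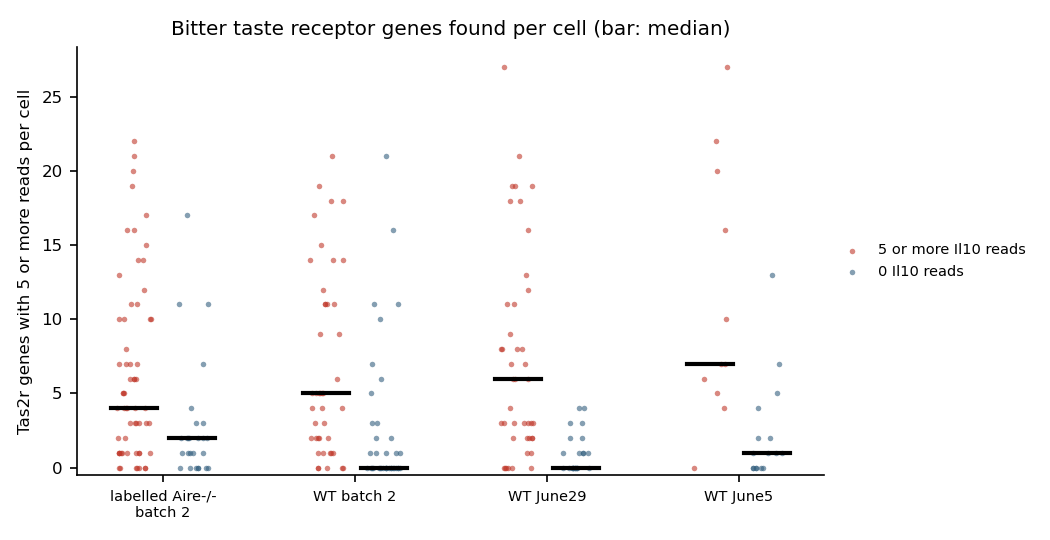
Number of Tas2r genes with 5 or more reads in each Il10-read and zero cell, by set, with bars at medians. Medians were 4, 5, 6 and 7 in Il10-read cells and 2, 0, 0 and 1 in zero cells, and both classes held cells with none.

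Single receptors differed in spread and order. By summed level 20 of the 24 were higher in Il10-read cells of all 4 sets, and Tas2r106, Tas2r123, Tas2r137 and Tas2r141-ps4 were lower in at least 1 set. Tas2r137 had 45.3, 63.7, 92.5 and 87.2 CPM in Il10-read cells, against 17.1, 56.5, 1.06 and 157.7 CPM in zero cells, lower in WT June5, and Tas2r106 had 8.03, 11.2, 19.4 and 21.7 CPM in Il10-read cells, against 0, 15.2, 0.0441 and 63.9 CPM in zero cells, lower in WT batch 2 and WT June5. Tas2r105, a receptor for cycloheximide in mice, had 232, 293, 751 and 496 CPM in Il10-read cells, against 140.4, 235, 8.33 and 47.6 CPM in zero cells (limma log2 fold 2.98 ± 0.50 SE, adjusted p = 0.0021). Its classes overlapped, because WT batch 2 zero cells lay above the Il10-read sum of the set labelled Aire-/-. Tas2r108 had 125.6, 305, 298 and 162.8 CPM in Il10-read cells, against 87.3, 80.2, 136.7 and 115.1 CPM in zero cells (limma log2 fold 2.66 ± 0.50 SE, adjusted p = 0.0041) and 5 or more reads in 25, 30, 24 and 10 Il10-read cells, against 8, 8, 5 and 7 zero cells. Tas2r118 had 101.4, 177.4, 131.6 and 145.2 CPM in Il10-read cells, against 0.0609, 38.9, 0.0441 and 53.2 CPM in zero cells, and Tas2r126 had 78.8, 110.3, 133.2 and 65 CPM in Il10-read cells, against 18.1, 0, 0.0441 and 0.319 CPM in zero cells. For Tas2r126, 0 zero cells of WT batch 2 and 0 of both June sets had 5 reads.

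Pou2f3, the POU-domain factor that tuft cells need to form, had 465, 547, 351 and 418 CPM in Il10-read cells, against 352, 288, 213 and 525 CPM in zero cells (edgeR log2 fold 0.21 ± 0.29 SE, adjusted p = 0.925; limma log2 fold 2.22 ± 0.41 SE, adjusted p = 0.0038). Without cells that had at least 2 markers of a haematopoietic list the edgeR fold was -0.31. POU factors of its class are known to bind the octamer ATGCAAAT, so promoters (250 bases before to 50 after the start, RefSeq, GRCm38.p6) were searched for it on both strands. It was present in 1.75% of 7375 tested genes with a promoter, and in 9 genes, or 6.25%, of those higher under both limma fits. These 9 included 4 of the 9 Tas2r genes and 5 of the others (3.70%), and across the genome 7 of 31 Tas2r promoters held it (22.6%), against 1.97% of 27025 genes. A match is a description of the letters only, and the related Tas2r genes are not independent cases.

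The windows below show the octamer in capitals, in the direction of transcription, for Rgs21 and the 4 Tas2r genes, because these are the cascade genes among the 9. In Rgs21 the octamer reads forward, and in the 4 receptors it reads as its reverse complement ATTTGCAT.
Rgs21 (chr1:144567834-144567893, minus strand): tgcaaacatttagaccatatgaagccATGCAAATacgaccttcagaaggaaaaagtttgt
Tas2r108 (chr6:40493420-40493479, plus strand): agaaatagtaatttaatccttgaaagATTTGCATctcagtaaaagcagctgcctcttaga
Tas2r118 (chr6:23970151-23970210, minus strand): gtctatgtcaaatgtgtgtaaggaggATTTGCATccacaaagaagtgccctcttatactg
Tas2r126 (chr6:42434315-42434374, plus strand): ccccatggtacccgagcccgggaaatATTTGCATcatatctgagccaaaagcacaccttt
Tas2r137 (chr6:40491020-40491079, plus strand): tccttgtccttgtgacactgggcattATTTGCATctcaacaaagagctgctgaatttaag
Each of the 5 genes was called higher by limma before and after thinning and none by edgeR.

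Tuft core genes as a list had a median limma fold near that of all genes, with calls in both directions. Of 30, all were tested, edgeR called 0, and limma called 5 higher and 2 lower (6.28% and 0.246% of all genes) with a median log2 fold of 0.50 against 0.36 over all genes. The genes called higher were Avil, Gnat3, Gnb3, Pou2f3 and Lrmp, and those called lower were Dclk1 and Sh2d6, while without WT June29 limma called 1 higher and 0 lower. Dclk1, a kinase widely used as a tuft cell marker, had 576, 627, 1143 and 900.0 CPM in Il10-read cells, against 1082, 1144, 1929 and 1576 CPM in zero cells (edgeR log2 fold -1.06 ± 0.16 SE, adjusted p = 0.372; limma log2 fold -2.10 ± 0.43 SE, adjusted p = 0.0073). In each set it was lower in Il10-read cells, although the ranges overlapped across sets. Sh2d6, an adaptor protein, had 1101, 1506, 1049 and 1439.8 CPM in Il10-read cells, against 2288, 2144, 1489.6 and 2753 CPM in zero cells (edgeR log2 fold -0.97 ± 0.18 SE, adjusted p = 0.496; limma log2 fold -1.14 ± 0.33 SE, adjusted p = 0.043, and adjusted p = 0.11 after thinning). Il17rb, the receptor for interleukin-25, had 229, 264, 228 and 271 CPM in Il10-read cells, against 232, 239, 456 and 421 CPM in zero cells and passed neither test.

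The 12 genes called lower by both limma fits were Adgrg6, Arap2, Cdhr2, Clic4, Dclk1, Dnah5, Itpr2, Ptprc, Selenop and the repeat-like Gm10800, Gm10801 and Gm26870. Gm10800 had 31.7, 1.83, 5429 and 72.2 CPM in Il10-read cells, against 386, 225, 13628 and 1112 CPM in zero cells. Among the others was Itpr2, a calcium release channel of the endoplasmic reticulum, with 262, 322, 506 and 289 CPM in Il10-read cells, against 453, 486, 1787 and 1099.8 CPM in zero cells (limma log2 fold -2.53 ± 0.41 SE, adjusted p = 0.0018). Dnah5, a dynein of motile cilia, had 86.5, 41.9, 50.9 and 0.153 CPM in Il10-read cells, against 421, 319, 166.3 and 269 CPM in zero cells (limma log2 fold -2.36 ± 0.42 SE, adjusted p = 0.0036). Its list, of ciliated cells, had 4 tested genes and no other call (6.28% higher and 0.246% lower of all genes by limma). Clic4 and Adgrg6, an intracellular chloride channel protein and an adhesion receptor, were lower in all 4 sets, with edgeR log2 folds of -1.36 ± 0.22 SE and -0.92 ± 0.27 SE that did not pass. Among further genes called higher by both fits, Cited2, a transcriptional co-regulator, had 176.9, 233, 177.3 and 142.3 CPM in Il10-read cells, against 26, 68, 3.31 and 103.05 CPM in zero cells, and Cap1, which binds actin, had 441, 734, 535 and 619 CPM in Il10-read cells, against 174.8, 266, 56.2 and 138.9 CPM in zero cells. These genes were singled out after their values had been seen.

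**Figure D5:**
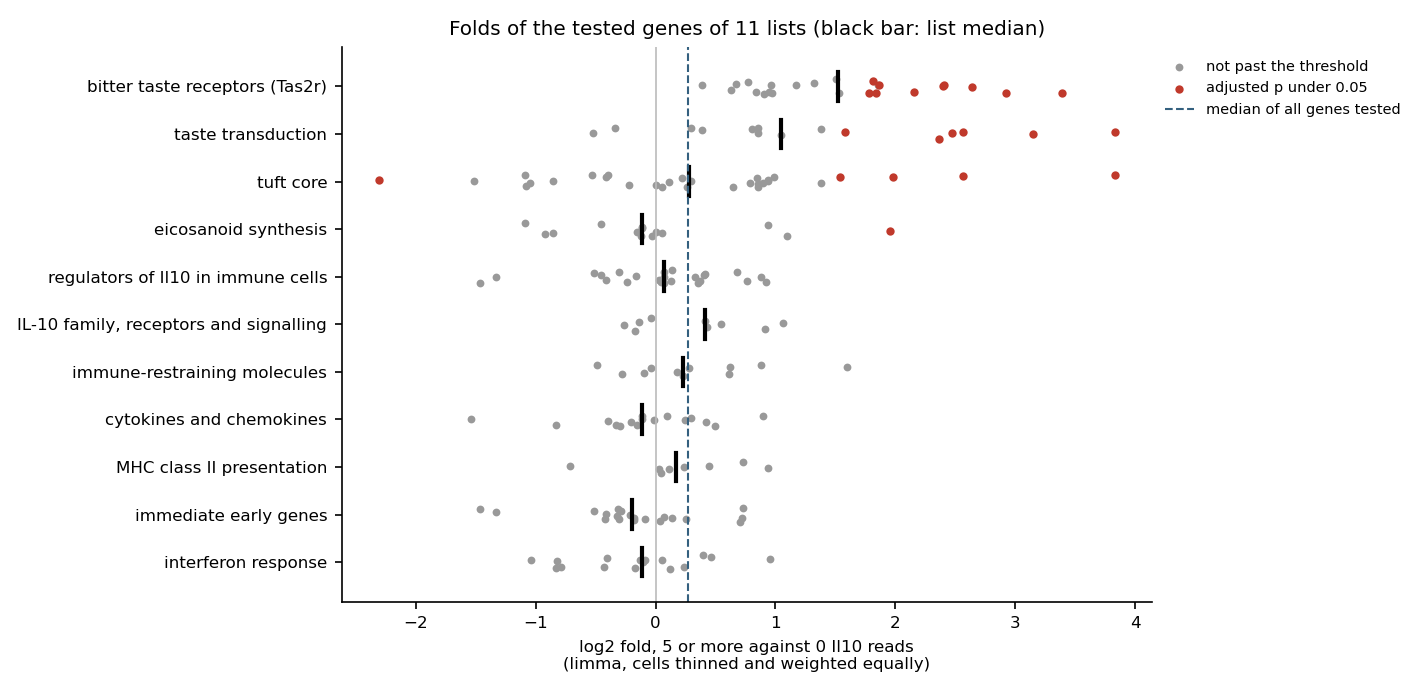
Log2 folds of the tested genes of 11 lists under limma with cells thinned and weighted equally, with coloured points at an adjusted p under 0.05, black bars at list medians and a dashed line at the median of all genes (0.27). The medians of bitter receptors (1.52) and taste transduction (1.05) lie to the right of that line.

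Genes known to control or receive Il10 showed no called difference. Of 31 listed regulators of Il10 in immune cells 24 were tested, and edgeR and limma each called 0. Over all genes edgeR also called 0, and limma called 6.28% higher and 0.246% lower. A count of 0 among so few genes is near those shares. The limma median was 0.20 against 0.36. Maf, Prdm1 and Ahr, factors that drive Il10 in T cells, were too low to test. Prdm1 had 5 or more reads in 2 Il10-read cells, both of WT June29, and in no zero cell. Maf had 5 or more reads in 1, 2, 0 and 0 Il10-read cells, against 2, 4, 0 and 1 zero cells. Nfil3, another such factor, had 35.9, 25.2, 41.2 and 66.5 CPM in Il10-read cells, against 19.8, 7.74, 99.2 and 10.3 CPM in zero cells. Most Il10-read cells of each set had under 5 reads of each of these 4 regulators.

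On the receiving side, Il10ra had 5 or more reads in 1, 0, 0 and 0 Il10-read cells, against 0, 1, 1 and 0 zero cells. Il10rb had 5 or more reads in 35, 21, 21 and 6 Il10-read cells, against 15, 15, 7 and 6 zero cells, and summed to 101.8, 127.99, 127.8 and 73.1 CPM in Il10-read cells, against 93.9, 83.8, 96.4 and 120.9 CPM in zero cells. Stat3 summed to 163.4, 107.6, 232 and 312 CPM in Il10-read cells, against 132.8, 131.3, 261 and 338 CPM in zero cells (edgeR log2 fold -0.29 ± 0.24 SE, adjusted p = 0.891). The list of the IL-10 family, its receptors and signalling had 9 of 18 genes tested and 0 called by edgeR or limma. Over all genes limma called 6.28% higher and 0.246% lower.

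Il10 lies at chr1:131019845-131024974 on the plus strand of GRCm38, beside its relatives Il19, Il20 and Il24. Il19, Il20 and Il24 each had 0 reads over all Il10-read cells, which allows up to 0.0193 CPM, and 0 reads over all zero cells, which allows up to 0.0420 CPM. Within 1 Mb of Il10 on either side the annotation (GENCODE M21) places 62 other genes of the count table, of which 14 were tested and 0 were called by edgeR or limma. Their limma median was -0.10 against 0.36 over all genes, of which limma called 6.28% higher and 0.246% lower. Mapkapk2, a kinase that stabilizes cytokine messages and the nearest tested neighbour, had 6.71, 9.97, 23 and 70.8 CPM in Il10-read cells, against 42.7, 0.87, 47.6 and 10.5 CPM in zero cells.

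Il25, the cytokine behind the sort, was read in both classes. It had 5 or more reads in 39, 24, 22 and 8 Il10-read cells, against 15, 14, 9 and 7 zero cells (63.9%, 55.8%, 51.2% and 72.7% of Il10-read cells, against 57.7%, 37.8%, 39.1% and 43.8% of zero cells), with summed levels of 70.2, 77, 58.4 and 66 CPM in Il10-read cells, against 96.5, 48.2, 38.9 and 77.2 CPM in zero cells. The sums had no fixed order and did not pass edgeR or limma. Of cytokines and chemokines 16 of 43 genes were tested and 0 were called by edgeR or limma (6.28% higher and 0.246% lower of all genes by limma). Cxcl16, a chemokine for T cells, had 54.1, 8.94, 73 and 24.7 CPM in Il10-read cells, against 43.9, 55.9, 218 and 245 CPM in zero cells, by its sum lower in the 3 WT sets only. It did not pass edgeR, or limma before or after thinning (limma adjusted p = 0.13 and 0.057). It did pass DESeq2 (adjusted p = 0.023) and limma on thinned, quantile-normalized profiles (adjusted p = 0.011).

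Among immune-restraining molecules 11 of 20 were tested, edgeR called 0, and limma called 1 higher (6.28% of all genes). This was Lgals9, a galectin, with 560.2, 975, 641 and 807 CPM in Il10-read cells, against 552, 479, 108.9 and 739 CPM in zero cells (limma log2 fold 1.89 ± 0.42 SE, adjusted p = 0.012, and adjusted p = 0.061 after thinning). Cd274, the ligand PD-L1, had 115.3, 86.1, 172.6 and 104.4 CPM in Il10-read cells, against 147.9, 103.6, 168.6 and 58.5 CPM in zero cells and was not called. Tgfb1 was too low to test, with 5 or more reads in 0, 0, 2 and 0 Il10-read cells, against 0, 0, 1 and 1 zero cells. In eicosanoid synthesis 14 of 17 genes were tested, edgeR called 0 and limma called 1 higher, Ptges3 (6.28% of all genes), with a list median of -0.12 against 0.36. Alox5, the leukotriene-forming lipoxygenase, had 2446, 1421, 1279 and 1788 CPM in Il10-read cells, against 2193, 1039.7, 819 and 2629.6 CPM in zero cells, and Ptgs1, a cyclooxygenase, had 561, 448, 432 and 507 CPM in Il10-read cells, against 1166, 441, 372 and 1046 CPM in zero cells.

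Antigen presentation, stress and interferon genes were counted gene by gene, and no list was tested as a group. Over all genes edgeR called 0, and limma called 6.28% higher and 0.246% lower. MHC class II, on which the sort gated for low protein, had 8 of 11 genes tested, 0 called by edgeR and 1, H2-Eb1, by limma. H2-Eb1 had 1569, 267, 136.4 and 244 CPM in Il10-read cells, against 479, 437, 942 and 191.6 CPM in zero cells (limma log2 fold 1.42 ± 0.42 SE, adjusted p = 0.046, and adjusted p = 0.41 after thinning), lower in Il10-read cells of WT batch 2 and WT June29 by its sum. Cd74, its chaperone, had 2573, 261, 259 and 504 CPM in Il10-read cells, against 1310.4, 1196, 2021 and 69.8 CPM in zero cells, higher in Il10-read cells of the set labelled Aire-/- and of WT June5 and lower in the others. H2-Aa and H2-Ab1 followed the same order by set. Immediate early genes (20 of 20 tested) and interferon response genes (16 of 20 tested) had 0 calls in edgeR and in limma, and Fos had 1219, 1990.3, 1059 and 418 CPM in Il10-read cells, against 664, 2504, 680.1 and 1932 CPM in zero cells. Gp2, a glycoprotein of microfold cells, had 5 or more reads in 10, 11, 13 and 2 Il10-read cells, against 4, 6, 12 and 9 zero cells, and passed neither test.

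The 5 genes with the smallest edgeR p and a lower level in Il10-read cells were Selplg, Gpr183, Trac, Rgs10 and Ccr7, all known from leukocytes, at adjusted p of 0.371 or 0.372. DESeq2 called all 5 (adjusted p of 8.6e-21, 8.2e-10, 5.4e-18, 5.7e-13 and 3.0e-27 in that order), and limma called none before or after thinning. The first 4 had at most 0.0801 CPM in any Il10-read sum. They were kept for testing only through zero cells, so their lower level was fixed by the filter. Trac, a T cell receptor chain, had 5 or more reads in 0, 0, 0 and 0 Il10-read cells, against 1, 1, 1 and 1 zero cells. Selplg, a ligand of selectins, had 5 or more reads in 0, 0, 0 and 0 Il10-read cells, against 1, 3, 2 and 1 zero cells, and Ccr7, a chemokine receptor, in 1, 0, 0 and 0 Il10-read cells, against 1, 2, 1 and 2 zero cells. Each of these zero-cell values therefore rests on 1 to 3 cells per set. Summed thymocyte markers were 5.82, 4.57, 11.3 and 7.57 CPM in Il10-read cells, against 3.17, 290.5, 166.9 and 193 CPM in zero cells, and dendritic cell or macrophage markers were 195, 96.5, 41.1 and 18 CPM in Il10-read cells, against 188.7, 389, 613 and 314 CPM in zero cells. Regulatory T or innate lymphoid markers were 56.6, 33, 88 and 9.94 CPM, against 54.5, 50.2, 232 and 42.9 CPM. B cell markers were 354, 295, 198.3 and 170.5 CPM, against 285, 269.9, 255 and 162.3 CPM, higher in Il10-read cells of all sets but WT June29. Mast cell or basophil markers were 437, 260, 360 and 276 CPM, against 397, 626, 224 and 398 CPM, in no fixed order. Ptprc, which encodes the CD45 excluded by the sort, had 58.3, 46.9, 30.8 and 0.153 CPM in Il10-read cells, against 54.5, 286, 301 and 314 CPM in zero cells (limma log2 fold -2.18 ± 0.45 SE, adjusted p = 0.0072). Cd3e, a chain of the T cell receptor complex, had 5 or more reads in 0, 0, 0 and 0 Il10-read cells, against 0, 1, 1 and 1 zero cells.

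Cells with 5 or more reads of at least 2 markers of a haematopoietic list were 17 of 61, 10 of 43, 15 of 43 and 5 of 11 Il10-read cells, against 7 of 26, 9 of 37, 11 of 23 and 5 of 16 zero cells. The lists concerned were thymocytes, B cells, dendritic cells or macrophages, regulatory T or innate lymphoid cells, and mast cells or basophils. Without those cells edgeR again called 0 genes, and limma called 84 higher (0.861%) and 5 lower (0.0512%), or 0 and 0 after thinning. Gnat3, Ovol3, Krt19, Mctp1 and Gnb3 were still called by limma without them before thinning (adjusted p of 0.0098, 0.0088, 0.0032, 0.024 and 0.015). Slitrk6 no longer passed there (limma adjusted p = 0.114). With cells thinned and limited to those with at least the median number of genes of their set, limma called 9 higher (0.0922%) and 0 lower, among them Gnat3, Ovol3, Mctp1, Rgs21 and Cited2. Krt19, Slitrk6 and Gnb3 did not pass in that fit (limma adjusted p of 0.556, 0.115 and 0.115).

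Within the Il10-read cells the level of Il10 was only weakly ordered with other genes. Over all Il10-read cells ranked within sets, the highest Spearman coefficients were 0.33 for the predicted genes Gm6767 and Gm6170, 0.32 for Gm5869 and 0.30 for Eef1a1, a translation factor. The other 6 of the 10 highest were Tnc, Anxa4, Sar1b, Ppia, Gm5883 and 9130230N09Rik, at 0.27 to 0.29. Gnat3 stood at 0.08 and Ovol3 at 0.12. The cells share libraries and differ in depth, and in counts this sparse such coefficients are a description only.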

How the data were processed

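Smart-seq2 libraries of 314 wells with 1 sorted cell, a 50-cell well of each genotype and 1 no-cell well were analysed, and 2 no-cell wells of batch 2 were not analysed here. The authors deposited counts, the reads of each gene in each well, with no molecular identifiers. Per the submitters' processing notes, STAR, featureCounts 1.5.3, Subread and GRCm38 were used, with no roles stated. The deposited score table, with values per gene and well, was used only for its list of 292 wells, and how the authors made the score is not given in the sources used here.

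The 92 ERCC spike-ins were left out of gene reads. Of 48795 genes, 48349 had a symbol. Doublets were not called, so a well could hold more than 1 cell. Of 301 kept cells, 158 were Il10-read cells and 102 zero cells.

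Counts were summed per class and set (8 sums), genes with a mean of at least 10 CPM were kept, and edgeR 4.0.16 (TMM, quasi-likelihood, set as a covariate) gave Benjamini-Hochberg adjusted p-values over all genes. Further fits were DESeq2 1.42.0 on the sums and limma 3.58.1 on mean log2(CPM + 1) per cell, a scale that understates folds of low genes. Its folds can also exceed those of the sums, as for Krt19 (3.48 against an edgeR fold of 1.37) and Pou2f3 (2.22 against 0.21). They are therefore not ratios of summed level. Thinned cells had 231697 gene reads, the 10th percentile, which 271 cells reached. Scripts were tested on simulated data. Other scalings, filters, thresholds and left-out sets were alternatives.

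The members and lists were chosen with earlier results of these data known. Genes named were the 5 per direction with the smallest edgeR p and 1 sign in all 4 sets, list members past a threshold, a preset list of tuft, Il10 and marker genes, genes within 1 Mb of Il10, and the 10 ranked most like Il10 over Il10-read cells. Genes called by both limma fits and the Tas2r list were added after their values had been seen. Promoters came from RefSeq.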

Additional observations from a re-analysis of the deposited data

Results flagged for a closer look

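The within-set log2 fold of Adgrg6, with 1 CPM added, was -1.61 in WT batch 2, apart from -0.36 in the set labelled Aire-/-, -0.36 in WT June29 and -0.48 in WT June5. About 1 in 20 such groups of 4 values is set apart by chance, and 26 genes were looked at.

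Of 46 tested genes looked at for this, 4 had a fold in the set labelled Aire-/- of opposite sign to all 3 WT sets, and these differences were not tested. Random signs alone can give such a count, so no difference between genotypes is read from it. For Calhm3 it was -0.14 in the set labelled Aire-/-, against 1.22, 2.74 and 0.83 in WT batch 2, WT June29 and WT June5. Ptprc had 0.10 in that set, against -2.58, -3.24 and -8.09, and Cxcl16 had 0.30, against -2.52, -1.56 and -3.26. These folds are of summed reads. By cells with 5 or more reads both genes were lower in Il10-read cells of all 4 sets. In the set labelled Aire-/- the shares were 26.2% against 34.6% of zero cells for Ptprc, and 11.5% against 15.4% for Cxcl16. Stat3 had 0.30, against -0.29, -0.17 and -0.11.

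Il10 was read at 386 CPM in the 50-cell well labelled WT and at 126.01 CPM in the one labelled Aire-/-, both of batch 2. The no-cell well, of batch 1 and with 9892 gene reads, was too shallow to set a background for them. The descriptions of the 50-cell wells put their genotypes in doubt.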

How the results depend on the processing

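With counts summed per class and set, edgeR called 0 genes higher and 0 lower as run and under other scaling, filters, read thresholds, comparison cells, thinning, left-out cells and each left-out set. Of the 9761 genes DESeq2 called 1.71% higher and 2.16% lower, limma with cells weighted equally 6.28% and 0.246%, and the same with thinned cells 1.87% and 0.184%. Sets were the replicate block, and the fit with no replicate block also called 0 and 0. Well numbers shared between sets pair nothing.

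Within limma with equal weights, the 6.28% higher and 0.246% lower became 1.87% and 0.184% with thinning, and 0.871% and 0.686% with thinning and quantile normalization. With thinned cells of at least the median genes they were 0.0922% and 0%. Without haematopoietic-marker cells they were 0% and 0% with thinning, and 0.861% and 0.0512% unthinned. Without the 4 zero cells of few tuft markers they were 7.05% and 0.287%, or 1.75% and 0.205% with thinning. Leaving out 1 set gave 0.0717% to 5.68% higher and 0% to 0.430% lower, lowest without WT June29. The cause was not tested.

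The share of Il10-read cells in WT June29 was 73.6% with 1 read as the threshold, and other shares stayed within their exact intervals. Trac had a limma log2 fold of 0.046 without haematopoietic-marker cells, 0.057 with thinning too. Pou2f3 had an edgeR fold of -0.31 without those cells. Shallow cells limit what a count of 0 shows. Thinning, quantile normalization, the minimum of 10 tuft core genes and other subsets of the limma fit were chosen after seeing the data.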
